A study of Homo sapiens with 42 samples.

Results

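The genes described here are 30 enzymes and regulators of sterol and fatty acid synthesis, chosen by name from the 60609 genes in the count tables, with earlier results of these data known. All 30 were expressed above the filter on low counts in both batches of the study. They were followed in 786-O cells, a human clear cell renal carcinoma line that lacks VHL and functional HIF-1α and therefore carries stable endogenous HIF-2α in every group. Each of the 14 groups had 3 RNA-seq libraries, 42 in all. Batch 1 (27 libraries, 9 groups) held unedited WT cells, 2 knock-in lines (each 1 clone: HIF-1β KIN, clone A21, and HIF-2α KIN, clone A31) with both endogenous copies tagged with V5-HaloTag, and 6 stable lines with a V5-HaloTag transgene driven by the weak L30 promoter. The transgenes were HIF-1α, HIF-1α R30E (a mutant of the DNA-binding domain), HIF-1αDM (the R170A-V191D double mutant, deficient in dimerization), HIF-2α, HIF-2α R27E (DNA-binding mutant) and HIF-2αDM (R171A-V192D, dimerization mutant). Batch 2 (15 libraries, 5 groups) held WT cells and L30-driven HIF-1α, HIF-2α and both domain swaps: HIF-2α/1α joins the N-terminal structured domains of HIF-2α to the C-terminal intrinsically disordered region (IDR) that HIF-1α carries, and HIF-1α/2α is the reverse. All transgenic lines were made in the WT cells, so a transgene was always added to endogenous HIF-2α. RNA extraction and library kit differed between the batches, so values were normalised within a batch and each line was compared with the WT of its own batch.

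Cholesterol is built from acetyl-CoA through mevalonate, isoprenoid pyrophosphates, squalene and lanosterol. Fatty acids are built from the same precursor by ACLY, ACACA and FASN and then lengthened and desaturated. The genes of both routes are switched on by the SREBP transcription factors, encoded by SREBF1 and SREBF2: SCAP escorts the SREBP precursors out of the endoplasmic reticulum when sterols are low, and INSIG1 holds the complex back when sterols are high. INSIG1 is itself a classical SREBP target, and so is SREBF1. Clear cell renal carcinoma takes its name from the lipid and glycogen stored in its cytoplasm.

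The promoters of 4 of the regulators and targets that the results turn on are shown: INSIG1, SCD, SREBF1 and SREBF2. Each is a RefSeq window on GRCh38.p14 from 250 bases before to 50 bases after an annotated start, written 5′ to 3′ on the strand of the gene. Capitals mark the sterol regulatory element TCACNCCAC or the NF-Y box CCAAT on either strand. The windows are at chr7:155297628-155297927 (+) for INSIG1, chr10:100346983-100347282 (+) for SCD, chr17:17836937-17837236 (-) for SREBF1 and chr22:41832855-41833154 (+) for SREBF2.
INSIG1: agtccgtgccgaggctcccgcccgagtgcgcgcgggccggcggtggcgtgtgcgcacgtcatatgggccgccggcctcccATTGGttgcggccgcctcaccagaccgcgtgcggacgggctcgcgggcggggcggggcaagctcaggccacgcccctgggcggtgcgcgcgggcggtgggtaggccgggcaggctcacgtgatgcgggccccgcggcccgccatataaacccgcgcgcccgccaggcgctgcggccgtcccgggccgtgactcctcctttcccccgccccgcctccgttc
SCD: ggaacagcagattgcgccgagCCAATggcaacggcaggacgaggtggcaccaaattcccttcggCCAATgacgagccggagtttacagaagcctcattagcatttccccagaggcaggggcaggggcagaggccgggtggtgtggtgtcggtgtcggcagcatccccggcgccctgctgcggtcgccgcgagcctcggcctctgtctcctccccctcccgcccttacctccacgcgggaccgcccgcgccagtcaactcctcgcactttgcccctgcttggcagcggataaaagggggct
SREBF1: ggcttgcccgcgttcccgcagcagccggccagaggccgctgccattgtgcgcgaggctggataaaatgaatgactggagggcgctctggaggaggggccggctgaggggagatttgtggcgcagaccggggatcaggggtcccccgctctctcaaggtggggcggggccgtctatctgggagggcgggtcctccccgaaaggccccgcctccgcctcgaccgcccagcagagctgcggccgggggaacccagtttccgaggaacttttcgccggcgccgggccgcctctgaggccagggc
SREBF2: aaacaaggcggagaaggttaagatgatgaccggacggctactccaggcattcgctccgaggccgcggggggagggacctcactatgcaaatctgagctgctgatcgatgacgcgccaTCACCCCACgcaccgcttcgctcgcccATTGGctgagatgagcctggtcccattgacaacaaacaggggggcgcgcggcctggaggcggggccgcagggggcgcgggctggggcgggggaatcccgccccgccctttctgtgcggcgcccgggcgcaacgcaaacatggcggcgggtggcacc

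The SREBF2 window held 1 sterol regulatory element and 1 NF-Y box, the SCD window 2 NF-Y boxes, the INSIG1 window 1 NF-Y box and 1 E-box (CACGTG), and the SREBF1 window none of these. The SREBF1 window sits at the upstream end of the gene, and any other start within that gene was not searched. RefSeq windows were matched for 26 of the 30 genes (35 windows, since some genes have several starts). The ones not matched were ACAT2, FASN, FDFT1 and SQLE. An NF-Y box lay in 68.6% of the members' windows and in 34.6% of all 35116 windows of the same length. The sterol element in the exact letters searched lay in 1 of the 35 windows, that of SREBF2 (2.86% against 1.13%). The E-box lay in 5 of the 35 (14.3% against 7.26%), more than 1 of which belongs to SC5D. These shares rest on few windows. The HIF core (ACGTG or GCGTG, the first of which lies inside the E-box letters) was in 85.7% of the members' windows and in 48.4% of all windows, with 6 matches in INSIG1, 1 in SCD, 1 in SREBF2 and 0 in SREBF1. These are matches of letters, on both strands, and not measured binding. The shares are not matched for base composition or expression, and a gene with several starts counts more than once. The E-box reads the same on both strands and gives a HIF core match on each, so INSIG1 has more matches than sites.

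In unedited cells the members spanned a wide range. On the RPKM scale (exon length from GENCODE release 44), which corrects for the length of a gene, WT levels in batch 1 ran from 0.872 ± 0.197 for TM7SF2 (a sterol reductase) to 161 ± 58.4 for FASN (fatty acid synthase), and in batch 2 from 0.595 ± 0.0943 for TM7SF2 to 185 ± 24.1 for SCD (stearoyl-CoA desaturase; SD, n = 3). SREBF2 was the higher of the SREBP genes in WT, at 84.0 ± 7.03 against 43.8 ± 7.14 for SREBF1 in batch 1, and 46.3 ± 2.73 against 20.3 ± 1.05 in batch 2. INSIG1 stood at 108 ± 12.8 and 155 ± 10.7 on the same scale. Levels across the batches are set by different kits and were not tested. Counting ignored strand, and 18 of the 30 genes overlap a gene on the opposite strand in this annotation, FADS1 and FADS2 overlapping each other. 5 members (IDI1, FDPS, CYP51A1, HSD17B7 and SCD) have pseudogenes of their own name, so their counts are less certain.

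Libraries held 42377599 to 101186554 counts in batch 1 and 76366799 to 109642159 in batch 2. In batch 1 the libraries numbered 3 were the deepest (at least 72801922 counts) and the members tended to be lower in them, with 20 of 30 below their group means and a median deviation of -0.13 on the log2 scale against -0.06 over all genes. The part of depth in that was not tested. The standard error of a member's log2 change from WT had a median of 0.25 in batch 1 and 0.06 in batch 2, so the same difference was resolved far better in batch 2. Normalised HIF1A counts rose from 231 to 257 in WT to 2786 to 3245 in the HIF-1α line of batch 1 and from 261 to 313 to 12761 to 13714 in batch 2. EPAS1, the gene of HIF-2α, went from 12562 to 16596 in WT to 40654 to 51949 in the HIF-2α line of batch 1 and from 11955 to 13537 to 42330 to 42909 in batch 2. The EPAS1 count was also raised in the R27E and HIF-2αDM lines (43759 to 67163), and the HIF1A count in both HIF-1α mutants (2017 to 2803). Each of these lines thus had more of the transcript its label names, while HIF1A counts in the HIF-2α line were also above WT (667 to 1216 in batch 1, 840 to 1101 in batch 2). In the HIF-2α KIN clone EPAS1 stood at 5801 to 6741, below every WT library of batch 1. The renal markers PAX8, VIM, KRT8, KRT18 and EPAS1 summed to at least 162614 normalised counts in every library, and the 2 leukocyte markers and the 2 endothelial markers to at most 10.4 and 9.52. COL1A1, a collagen gene among the fibroblast markers, was present in every group (means of 548 to 1909), DCN and PDGFRA at means of at most 4.95. COL1A1 was at 507 to 606 in WT of batch 2, 941 to 1196 in the HIF-1α line, 1014 to 1339 in HIF-2α/1α and 1142 to 1290 in HIF-2α. It rose in these 3 lines (0.94 to 1.13 on the log2 scale) and was at 497 to 613 in HIF-1α/2α. The renal markers moved as well in batch 2. KRT18 was at 18679 to 19607 in WT, 9517 to 10448 with HIF-2α and 13348 to 15672 with HIF-1α/2α, and KRT8 at 101727 to 103601, 69318 to 76765 and 72452 to 78159. VIM was higher, at 255176 to 279497 with HIF-2α and 266038 to 280166 with HIF-1α/2α against 192062 to 200668 in WT. PAX8 went from 26191 to 28818 in WT to 18610 to 19994 with HIF-2α and 28650 to 32135 with HIF-1α/2α. In batch 1 KRT18 was at 14173 to 18291 in WT and 7684 to 10295 with HIF-2α. The part of these markers in the results was not tested. In these bulk samples fewer cells of a kind and less RNA per cell cannot be told apart.

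The first question was whether adding wild-type HIF-2α or HIF-1α changes these genes, as measured where the replicates were tightest, in batch 2. In every transgenic line most members were lower than in WT. Below, a gene is called when edgeR's quasi-likelihood test gives an adjusted p of at most 0.01 and the change is at least 2-fold, and counts at the same p with any fold are given beside it. With HIF-2α, 10 of 30 members were called lower (2.13% of all 28724 genes tested) and 26 were lower at any fold (14% of all genes). The median member changed by -0.76 on the log2 scale, against 0.07 for all genes. With HIF-1α only INSIG1 was called lower (0.484% of all genes), but 25 members were lower at any fold (7.87%), with a median of -0.56 against 0.03. Every library of the line lay below every WT library for 26 members with HIF-1α (17% of all genes) and for 27 with HIF-2α (20.8%). No member was higher with HIF-1α at the adjusted p, and 1 (PMVK, phosphomevalonate kinase) was higher with HIF-2α, where 13.4% of all genes were. Shares over all genes, here and below, are not matched for expression level. They include any gene with a mean normalised count of at least 0.5, while TM7SF2, the lowest member in WT, averaged 181. The part of expression level in these contrasts was not tested.

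**Figure D1:**
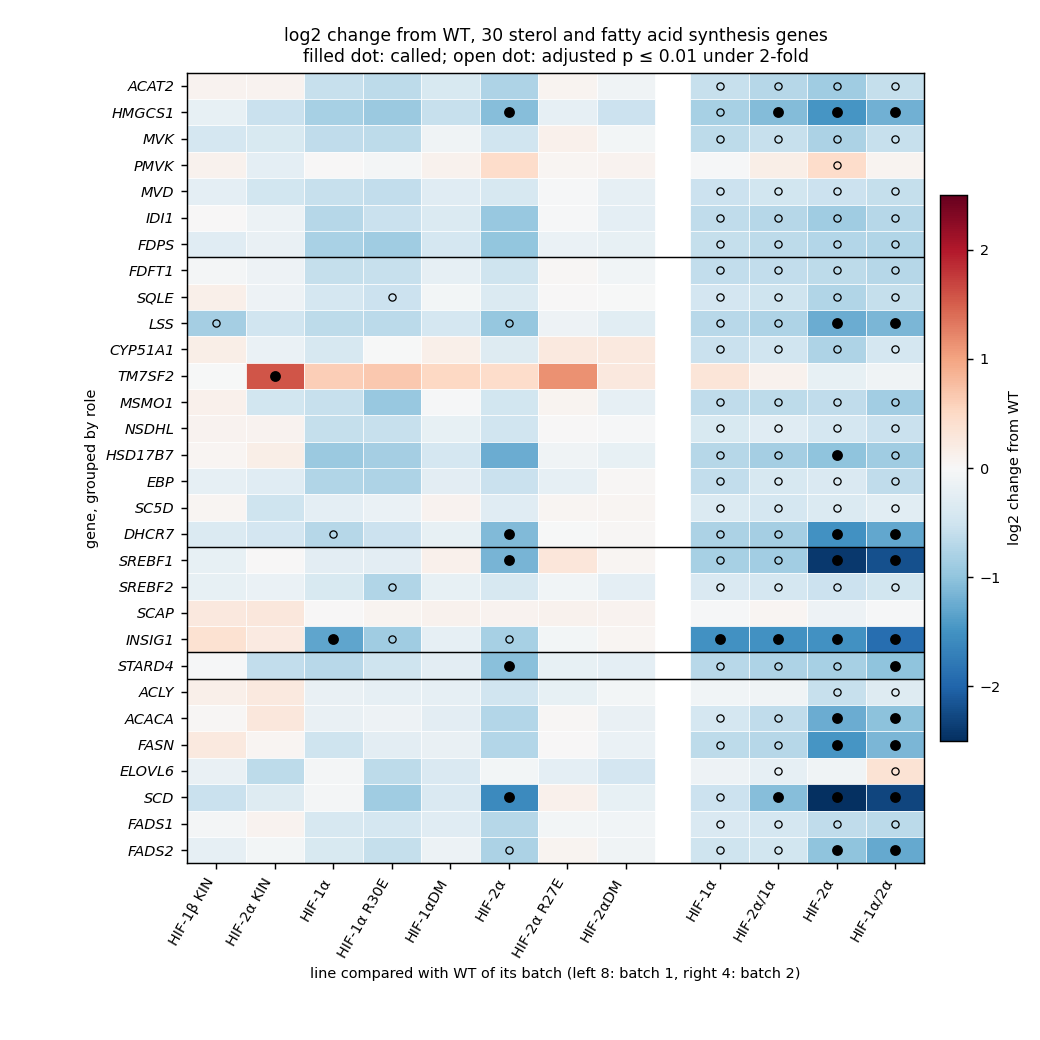
Colour gives the log2 change from the WT of the same batch for each of the 30 genes (vertical axis, grouped by role) in each line (horizontal axis; 8 lines of batch 1 on the left, 4 of batch 2 on the right). Filled dots mark called genes and open dots genes at an adjusted p of at most 0.01 under 2-fold; with HIF-2α there are 5 filled dots in batch 1 and 10 in batch 2.

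SREBF1, which encodes the SREBP that drives fatty acid synthesis, was among the members that moved furthest. It lies at chr17:17810399-17837002 on the minus strand. In batch 2 its normalised counts were 14698, 14372 and 15847 in WT and 2940, 2637 and 2873 with HIF-2α. Every HIF-2α library lay far below every WT library. The change was -2.41 ± 0.07 (log2 ± SE, edgeR adjusted p = 5.7e-31), or 5.31-fold lower. With HIF-1α it stood at 8911, 8773 and 7630, a change of -0.83 ± 0.06 (edgeR adjusted p = 8.2e-15), so the HIF-1α libraries lay between the other groups without overlap.

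SCD makes monounsaturated fatty acids and lies at chr10:100347233-100364826 on the plus strand. Its counts in batch 2 were 77747, 82979 and 99482 in WT, 63307, 61584 and 55618 with HIF-1α, and 14675, 14561 and 15984 with HIF-2α. The groups did not overlap. SCD was 5.75-fold lower than WT with HIF-2α (-2.52 ± 0.07, edgeR adjusted p = 1.5e-31) and 1.44-fold lower with HIF-1α (-0.53 ± 0.06, edgeR adjusted p = 4.7e-09).

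INSIG1 (chr7:155297776-155310235, plus strand) behaved otherwise. It fell by more than 2-fold in both lines, from 47028, 50934 and 54028 in WT to 18335, 17832 and 16711 with HIF-1α and to 16928, 17612 and 18619 with HIF-2α. The libraries of the HIF-1α and HIF-2α lines overlapped. The changes were -1.52 ± 0.06 for each (edgeR adjusted p = 8.0e-26 and 3.2e-26), and HIF-2α and HIF-1α differed by 0.01 ± 0.05 (95% interval -0.10 to 0.12) with an edgeR adjusted p of 0.96.

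Among the other regulators, SREBF2, which encodes the SREBP that mainly drives cholesterol synthesis, was lowered less. It went from 32476, 32064 and 35655 in WT to 26127, 25302 and 25286 with HIF-1α (-0.39 ± 0.05, edgeR adjusted p = 3.1e-08) and to 23158, 22454 and 23144 with HIF-2α (-0.54 ± 0.05, adjusted p = 1.5e-12). No transgenic library reached the lowest WT library. SCAP, the escort protein, was within 9195 to 9784 in WT, 8982 to 9606 with HIF-1α and 8515 to 8847 with HIF-2α. Its change did not pass the test in any of the 4 lines of batch 2 (-0.12 to 0.05).

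Of the enzymes of the mevalonate part, HMGCS1, which makes the HMG-CoA that enters the pathway, fell most. Its counts were 20029, 20955 and 22351 in WT, 12677, 12308 and 10856 with HIF-1α and 7234, 7453 and 8237 with HIF-2α. The 3 groups did not overlap. The changes were -0.82 ± 0.06 (HIF-1α) and -1.47 ± 0.06 (HIF-2α), with edgeR adjusted p = 1.2e-14 and 1.9e-23. ACAT2, MVK, MVD, IDI1 and FDPS, which act before and after it, fell by less than 2-fold in both lines, from -0.54 (MVD) to -0.65 (MVK) with HIF-1α and from -0.54 (MVD) to -0.88 (ACAT2 and IDI1) with HIF-2α. PMVK, which phosphorylates mevalonate phosphate, was the exception. Its counts were 2967, 3083 and 3248 in WT, 2986, 3006 and 3098 with HIF-1α, and 4436, 4082 and 4279 with HIF-2α, where it rose by 0.46 ± 0.06 (edgeR adjusted p = 3.4e-08).

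Of the 11 squalene and sterol enzymes, 10 were lower in both lines, all but TM7SF2. DHCR7, which makes cholesterol in the last step of a branch, went from 28353, 29127 and 34328 in WT to 17798, 17391 and 18189 with HIF-1α and to 10363, 9583 and 12212 with HIF-2α. LSS, the lanosterol synthase, went from 12637, 12352 and 14466 to 8660, 8236 and 7537 and to 5428, 5404 and 5801. For both genes the 3 groups were separate. The changes with HIF-2α were -1.51 ± 0.07 for DHCR7 and -1.25 ± 0.06 for LSS (edgeR adjusted p = 1.3e-22 and 4.3e-21). HSD17B7, a keto-reductase of the sterol ring, was called with HIF-2α just past the fold threshold (-1.01 ± 0.09, edgeR adjusted p = 5.0e-13), from 2300, 2254 and 2599 counts to 1187, 1030 and 1336. STARD4, which carries sterol between membranes, fell by 0.82 ± 0.08 with HIF-2α and by 0.69 ± 0.08 with HIF-1α, from 3605, 4152 and 3848 counts to 1957, 2154 and 2447 and to 2568, 2455 and 2155.

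In fatty acid synthesis, FASN went from 96196, 94779 and 106262 in WT to 64943, 62665 and 62001 with HIF-1α and 34019, 36232 and 36935 with HIF-2α. ACACA, the acetyl-CoA carboxylase of the committed step, went from 11192, 11360 and 12636 to 8830, 8908 and 8226 and to 4878, 4801 and 5129. FADS2, a desaturase of polyunsaturated fatty acids, went from 53075, 53364 and 63789 to 40224, 39392 and 38558 and to 28267, 27344 and 29295. In each gene the HIF-2α libraries lay below the HIF-1α libraries and these below WT. With HIF-2α the changes were -1.47 ± 0.05 (FASN), -1.25 ± 0.06 (ACACA) and, for FADS2, just past 2-fold lower (95% interval on the log2 scale -1.12 to -0.89), at the edge of the fold threshold, all called by edgeR with adjusted p-values of 2.3e-27, 6.9e-21 and 1.7e-19. ACLY, which supplies cytosolic acetyl-CoA, fell with HIF-2α (-0.58 ± 0.05, edgeR adjusted p = 5.1e-14) and changed by -0.09 ± 0.05 with HIF-1α, which did not pass. ELOVL6, an elongase of long-chain fatty acids, did not pass in either line (-0.13 ± 0.07 with HIF-1α and -0.10 ± 0.07 with HIF-2α).

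**Figure D2:**
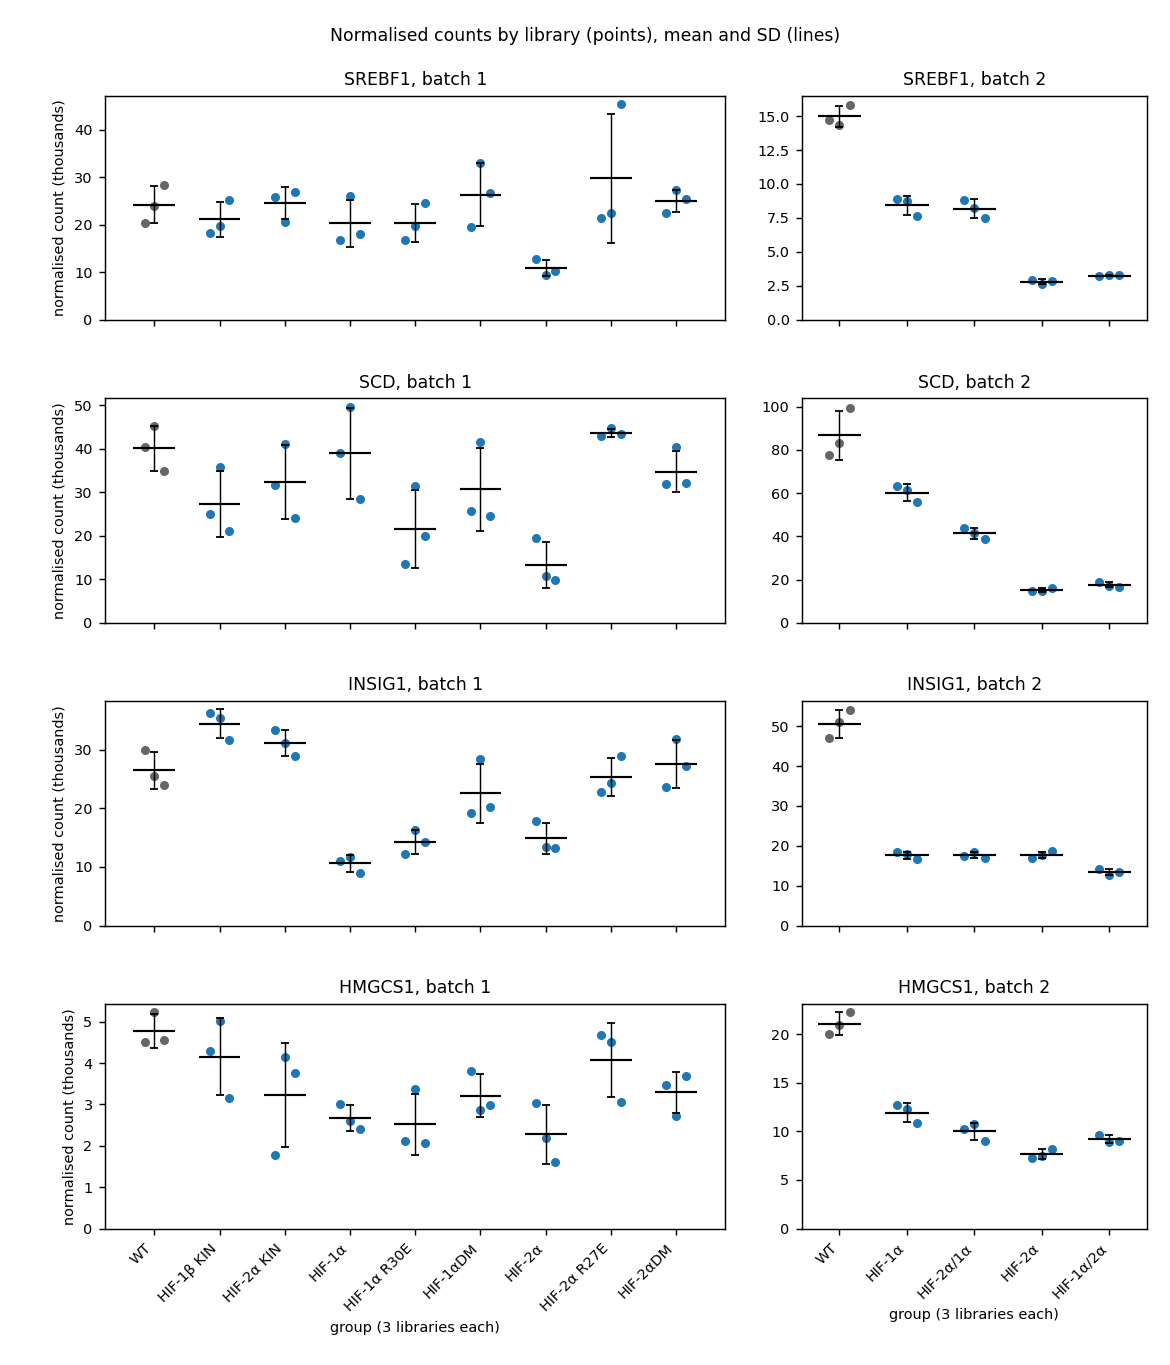
Normalised counts (vertical axes, from 0, scaled as labelled) of SREBF1, SCD, INSIG1 and HMGCS1 in each library (points) by group (horizontal axis), with the mean and SD of 3 libraries; batch 1 is on the left and batch 2 on the right. In batch 2 the 3 HIF-2α libraries of SCD lie between 14561 and 15984 and the WT libraries between 77747 and 99482, while INSIG1 is at like levels with HIF-1α and HIF-2α.

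Compared directly in batch 2, HIF-2α had 2 members called lower than HIF-1α, SCD (3.99-fold lower, 95% interval on the log2 scale -2.13 to -1.86, edgeR adjusted p = 1.4e-27) and SREBF1 (-1.58 ± 0.06, adjusted p = 4.4e-24), against 2.14% of all genes. At any fold 13 members were lower (9.74% of all genes) and 2 were higher (7.9%), namely PMVK at 0.49 ± 0.06 and EBP, a sterol isomerase, at 0.24 ± 0.07. Among the 13 were 6 of the 7 fatty acid genes, all but ELOVL6. Of the 11 squalene and sterol enzymes only SQLE, LSS and DHCR7 were.

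The domain swaps asked which part of the HIF-α protein goes with these changes. With the HIF-2α/1α transgene, 3 members were called lower than WT (0.508% of all genes): INSIG1, HMGCS1 and SCD. At any fold 26 were lower (7.91%), and the median was -0.59 against 0.03 for all genes. With HIF-1α/2α, 10 were called lower (2.68%), 26 were lower at any fold (14.1%) and 1, ELOVL6, was higher (13.7% of all genes were), with a median of -0.70 against 0.08. Of the members, 25 were lower at any fold in all 4 lines (4.3% of all genes were). INSIG1 was the 1 member called lower in all 4 (0.261% of all genes), 9 were called lower in both lines that carried the HIF-2α IDR (1.51%), and 1 in both lines that carried the HIF-1α IDR (0.345%). These lines share the same WT libraries. Per the methods of the study, the stable lines were selected and kept in puromycin, while the WT cells were not genetically modified. No repeat line of a transgene, made separately, is described. A difference between transgenes therefore cannot be told apart here from a difference between lines, and the part of selection was not tested. EPAS1 counts were at 15169 to 17435 in the HIF-1α line and 19460 to 21983 in HIF-2α/1α, against 42330 to 42909 in HIF-2α and 47952 to 53853 in HIF-1α/2α, so the amount of transgene and endogenous transcript also differed between the lines, and its part in the results was not tested. HIF1A counts were at 9556 to 9706 with HIF-2α/1α and 9081 to 10321 with HIF-1α/2α. The 7 fatty acid genes had a median of -0.44 and -0.49 (group means over libraries, log2 from WT) in the 2 lines with the HIF-1α IDR, and of -0.999 in the HIF-2α line and -1.01 in HIF-1α/2α.

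The SREBF1 and SCD counts divided the lines by the IDR they carried. SREBF1 stood at 8847, 8234 and 7504 with HIF-2α/1α, overlapping the HIF-1α libraries, and at 3222, 3277 and 3284 with HIF-1α/2α, above but near the HIF-2α libraries. The lines with the HIF-2α IDR were all below those with the HIF-1α IDR, which held for 7.44% of all genes. Averaged over both structured parts, SREBF1 in lines with the HIF-2α IDR differed from lines with the HIF-1α IDR by -1.46 ± 0.05 (95% interval -1.55 to -1.36, edgeR adjusted p = 7.7e-29). This contrast is named the IDR effect. The like contrast of the structured parts, the structured-domain effect, was -0.13 ± 0.04 (-0.22 to -0.04, edgeR adjusted p = 0.044). Both compare single lines that also differed in EPAS1 counts, so the part of the protein cannot be told apart from line or transcript level. SCD stood at 43796, 41677 and 38766 with HIF-2α/1α and at 19067, 17161 and 16739 with HIF-1α/2α. Here all 4 lines were separate. The IDR effect on SCD was -1.61 ± 0.05 (-1.71 to -1.52, edgeR adjusted p = 1.9e-30) and the structured-domain effect -0.38 ± 0.04 (-0.47 to -0.29, adjusted p = 6.3e-09). For both genes the 95% intervals of the 2 effects did not overlap.

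Across the members, the IDR effect was called for SREBF1 and SCD (2.5% of all genes were called lower) and passed at any fold for 14 lower (13.4% of all genes) and 2 higher members (11.4%). The lower ones were 6 of the 7 fatty acid genes, with FADS2 (-0.64 ± 0.04), FASN (-0.63 ± 0.03) and ACACA (-0.60 ± 0.04) after SCD, and SREBF1, INSIG1, STARD4, HMGCS1, SQLE, LSS, NSDHL and DHCR7. The higher ones were ELOVL6 (0.31 ± 0.05, edgeR adjusted p = 7.5e-07) and PMVK (0.20 ± 0.04). The structured-domain effect was under 2-fold for every member. It passed for 7 lower (5.81% of all genes) and 4 higher members (5.6%), SCD being the lowest and PMVK the highest (0.30 ± 0.04, edgeR adjusted p = 1.1e-06), followed by EBP (0.23 ± 0.05). Of the 7 lower members, 5 were again fatty acid genes. The fatty acid genes had a median of -0.19 for the structured domains and -0.60 for the IDR.

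**Figure D3:**
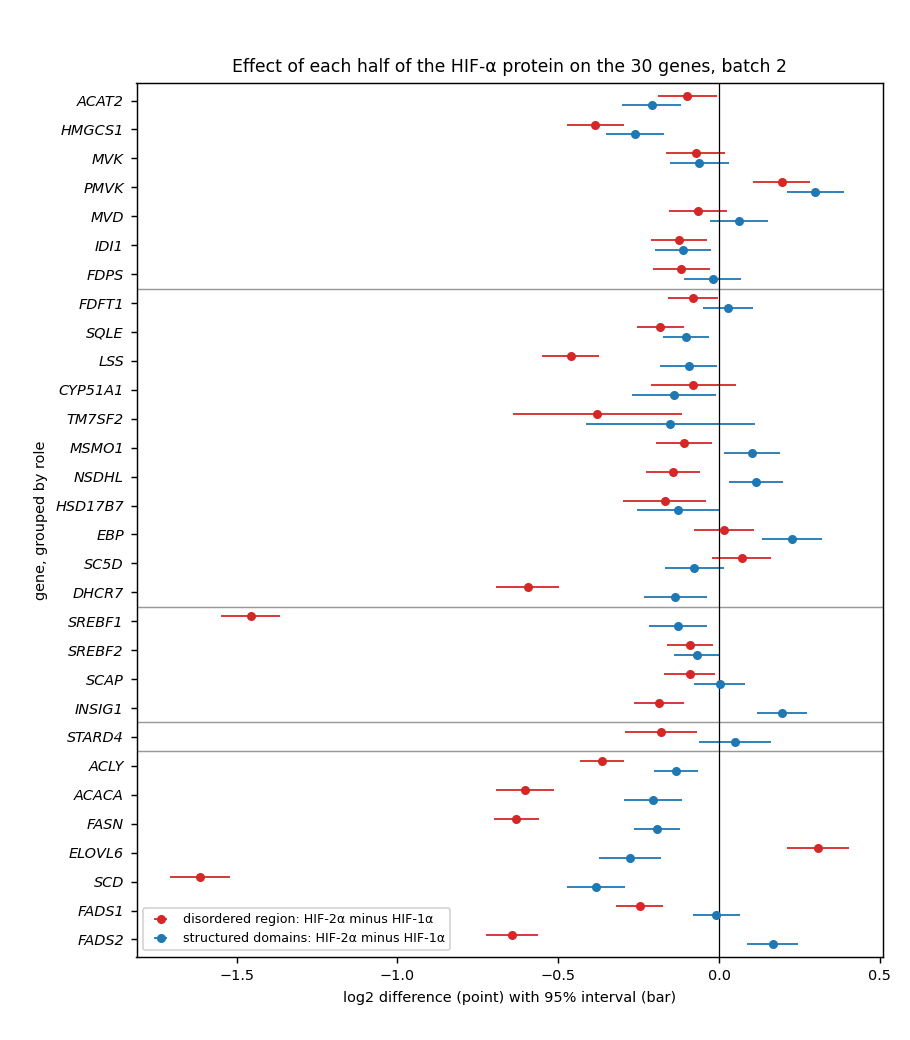
Points give the log2 difference in batch 2 between lines with the HIF-2α part and lines with the HIF-1α part (horizontal axis), with 95% intervals. Each of the 30 genes is shown (vertical axis, grouped by role). Red is the disordered region and blue the structured domains. SCD and SREBF1 lie at -1.61 and -1.46 for the disordered region and at -0.38 and -0.13 for the structured domains.

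Of the other members called in a swap line, HMGCS1 was at 10288, 10734 and 9016 in HIF-2α/1α, where it was called (-1.08 ± 0.06), and at 9638, 8896 and 9035 in HIF-1α/2α (-1.20 ± 0.06), so the swap lines overlapped. FASN was at 63751, 58920 and 59209 in HIF-2α/1α and 42927, 46521 and 44936 in HIF-1α/2α (-1.15 ± 0.05), and ACACA at 8218, 7338 and 7261 and 6206, 5949 and 5155 (-1.02 ± 0.06). DHCR7 was at 18639, 16015 and 16429 and 11727, 12082 and 13351 (-1.30 ± 0.07), and LSS at 8180, 7653 and 7218 and 5771, 5801 and 6301 (-1.14 ± 0.06). Both swap lines were separate from each other for these 4 genes, and the share of all genes for this pair was not counted. FADS2 stood at 44268, 39555 and 39158 in HIF-2α/1α and at 22517, 24014 and 23601 in HIF-1α/2α (-1.28 ± 0.06), the latter below every library of the HIF-2α line. The edgeR adjusted p-values of these changes from WT were at most 5.3e-18.

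INSIG1, SREBF2 and SCAP did not follow the same order. INSIG1 was lowest with HIF-1α/2α (14290, 12800 and 13464) and at 17412, 18428 and 17049 with HIF-2α/1α, overlapping the lines with the unswapped proteins. Its IDR effect was -0.19 ± 0.04 (edgeR adjusted p = 0.00010) and its structured-domain effect 0.20 ± 0.04 (adjusted p = 0.00016). SREBF2 stood at 23616 to 25977 with HIF-2α/1α and 23590 to 24557 with HIF-1α/2α. Its IDR effect (-0.09 ± 0.04) and structured-domain effect (-0.07 ± 0.04) did not pass, nor did those of SCAP (-0.09 ± 0.04 and 0.00 ± 0.04). ELOVL6 was raised with HIF-1α/2α alone, at 10756, 9529 and 8699 against 7008, 7768 and 7909 in WT (0.35 ± 0.07, edgeR adjusted p = 2.5e-05), and STARD4 was called with that line too (2035, 1955 and 1770 counts, -1.01 ± 0.08).

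The interaction, which asks whether the IDR effect depended on the structured part, passed for 2 members in the lower direction (2.36% of all genes), ELOVL6 (-0.36 ± 0.09) and FASN (-0.27 ± 0.07), and for 1 in the higher (3.01%), INSIG1 (0.39 ± 0.08). Their edgeR adjusted p-values were 0.0084, 0.0085 and 0.00039. Beside the structured part of HIF-2α, mean INSIG1 counts were 17720 with the HIF-2α IDR and 17630 with the HIF-1α IDR, and beside that of HIF-1α they were 13518 and 17626. With RLE factors FASN and ELOVL6 did not pass (edgeR adjusted p = 0.019 and 0.011). For SREBF1 it was -0.17 ± 0.09, which did not pass (adjusted p = 0.28).

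Batch 1 asked the same of the parent proteins, of their mutants and of the knock-in clones. With HIF-2α, 5 members were called lower than WT (1.94% of the 23410 genes tested): SCD, SREBF1, DHCR7, HMGCS1 and STARD4. At any fold LSS, INSIG1 and FADS2 were lower as well, 8 in all (3% of all genes), and 16 once the replicate number entered the model as a block. The median member changed by -0.64 against -0.09 for all genes. SCD was at 40321, 45161 and 34817 in WT and 19414, 10676 and 9727 with HIF-2α, and SREBF1 at 20424, 23976 and 28306 and 12703, 9481 and 10271. The HIF-2α libraries lay below WT for both. The changes were -1.60 ± 0.30 (edgeR adjusted p = 0.00036) and -1.16 ± 0.25 (adjusted p = 0.0018).

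DHCR7 fell from 26358, 28892 and 27272 to 15195, 10665 and 12408 (-1.11 ± 0.17, edgeR adjusted p = 3.7e-05). HMGCS1 fell from 4514, 5244 and 4556 to 3028, 2192 and 1619 (-1.07 ± 0.26, adjusted p = 0.0063), and STARD4 from 1115, 1246 and 1020 to 578, 609 and 463 (-1.04 ± 0.26, adjusted p = 0.0070). No HIF-2α library of these genes reached the WT range, and 17 members and 17.1% of all genes lay below WT in this way. Of the 6 fits that left out 1 of these libraries, SCD was called in 6, DHCR7 in 5, SREBF1 in 3, HMGCS1 in 1 (without HIF-2α replicate 1) and STARD4 in 0. Leaving out HIF-2α replicate 2 kept only SCD called, and leaving out HIF-2α replicate 3 kept only SCD and DHCR7. Without WT replicate 2 or WT replicate 3 there were 3 called members.

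With HIF-1α in batch 1, INSIG1 was the 1 member called lower (0.517% of all genes), from 30002, 25529 and 23932 in WT to 11031, 11733 and 9050. The libraries were separate, and the change was -1.32 ± 0.18 (edgeR adjusted p = 9.9e-06). DHCR7 was lower at any fold as well (16421, 17880 and 15716; -0.72 ± 0.17, adjusted p = 0.0064), making 2 members (1.04% of all genes), and 12 in the fit with the replicate block. DHCR7 did not pass when any 1 of the 6 libraries was left out. The median was -0.54 against -0.03. SREBF1 stood at 16807, 25945 and 18040, overlapping WT, with a change of -0.26 ± 0.25 that did not pass (95% interval -0.77 to 0.25). SCD also overlapped WT (38968, 49498 and 28532). SREBF2 was at 32381 to 37952 against 41825 to 49409 in WT, which did not pass either (-0.39 ± 0.16, adjusted p = 0.14). HIF-2α against HIF-1α called SCD alone among the members (-1.56 ± 0.30, edgeR adjusted p = 0.0010), where 1.46% of all genes were called lower and 1.74% were lower at any fold. That call was lost without HIF-1α replicate 2, HIF-2α replicate 2 or HIF-2α replicate 3. With the block 2 members were lower at any fold.

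Each mutant was compared with WT, which asks whether DNA binding and dimerization go with these changes. HIF-2α R27E and HIF-2αDM had no member lower at any fold (0.047% and 0.0342% of all genes), with medians of 0.01 and -0.10. At an unadjusted p under 0.05, R27E had 1 member (TM7SF2, higher) and HIF-2αDM had 0, and DESeq2 also called none. SREBF1 stood at 21453, 22358 and 45334 with R27E and at 22458, 27220 and 25315 with HIF-2αDM. SCD was at 42828, 44694 and 43399 and at 31902, 40298 and 32119. Both genes overlapped WT in both mutants, and SREBF1 had 1 R27E library well above the others. HIF-2α against the mean of its 2 mutants called SCD (-1.55 ± 0.27), SREBF1 (-1.33 ± 0.23) and DHCR7 (-1.11 ± 0.16) lower (1.74% of all genes). Their edgeR adjusted p-values were 0.00016, 0.00013 and 7.8e-06. LSS, INSIG1 and FADS2 made 6 members at any fold (3.01%), and 16 with the block. Without HIF-2α replicate 2 there were 2 called members and 4 at any fold.

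Of the HIF-1α mutants, HIF-1αDM had no member lower at any fold (0.00854% of all genes), with a median of -0.23, 2 members at an unadjusted p under 0.05 and none by DESeq2. HIF-1α R30E had 3 lower at any fold (0.94% of all genes) with a median of -0.58: INSIG1 (12209, 16379 and 14308; -0.89 ± 0.18), SREBF2 (23159, 27324 and 30481; -0.75 ± 0.16) and SQLE, the squalene epoxidase (11302, 10812 and 11402; -0.55 ± 0.13). Each lay below all WT libraries, as 10.2% of all genes did, at edgeR adjusted p = 0.0017, 0.0023 and 0.0097. Without any one of the R30E or WT replicates the count was 0 to 2, and with only R30E and WT in the fit it was 0. With the replicate number as a block it was 14, although the numbers of R30E and WT did not all pair (lowest correlation 0.0748). In like fits R30E and HIF-1α had 3 and 2 members lower with no block and 14 and 12 with it. DESeq2 gave 5 and 4, and the medians with no block were -0.58 and -0.54. INSIG1 in HIF-1αDM was at 19147, 28363 and 20176, overlapping WT. Against the mean of both HIF-1α mutants, HIF-1α had 1 member lower, INSIG1 (-0.76 ± 0.16, edgeR adjusted p = 0.0031), where 0.436% of all genes were. HIF-1α and R30E alone were not tested against each other.

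**Figure D4:**
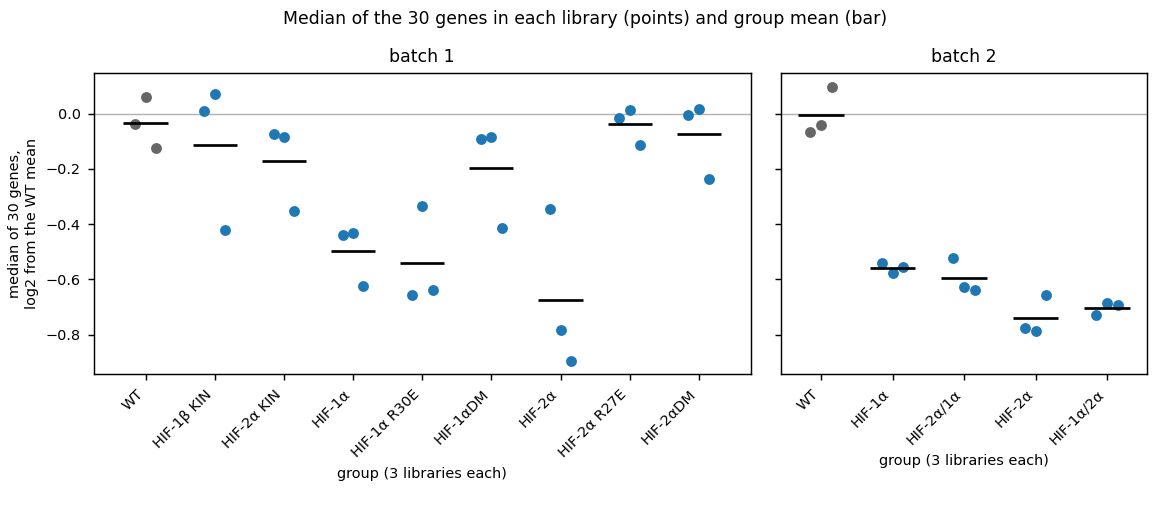
Each point is the median, over the 30 genes, of a library's log2 difference from the mean of the WT libraries of its batch (vertical axis), by group (horizontal axis), and bars are group means. In batch 2 all 12 transgenic libraries lie between -0.79 and -0.52, and in batch 1 the HIF-2α libraries spread from -0.89 to -0.34.

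In the knock-in clones, where no transgene was added, few members stood apart from WT. EPAS1 counts in HIF-2α KIN were themselves below WT, and their part was not tested. HIF-1β KIN had 1 lower at any fold (1.16% of all genes), LSS, at 7530, 9233 and 8657 against 13513, 18389 and 14086 in WT (-0.86 ± 0.17, edgeR adjusted p = 0.0033). HIF-2α KIN had none lower (2.66% of all genes; 8 members were lower at an unadjusted p under 0.05 and none by DESeq2) and 1 called higher (2.35% of all genes). This was TM7SF2, at 612, 654 and 510 against 173, 252 and 174 (1.57 ± 0.30, adjusted p = 0.00072). It overlaps VPS51 and is the lowest expressed member per length. None of the regulators passed the test in either clone. In HIF-1β KIN and HIF-2α KIN, in this order, SREBF1 was at 18360 to 25183 and 20665 to 26922, SREBF2 at 35670 to 44433 and 37916 to 44135, SCAP at 12066 to 16499 and 12491 to 15607, and INSIG1 at 31671 to 36169 and 28836 to 33290. INSIG1 in HIF-1β KIN lay above every WT library (0.38 on the log2 scale), as 8% of all genes did, while the others overlapped WT. Each clone is 1 clone, so a difference between its libraries and WT cannot be told apart from a difference between clones.

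SCAP did not pass in any of the batch 1 comparisons with WT (0.00 to 0.27), its counts running from 9785 to 13688 in WT, 9473 to 13401 with HIF-1α, 10618 to 14525 with R30E, 11274 to 13448 with HIF-1αDM, 10957 to 14026 with HIF-2α, 10028 to 15995 with R27E and 12070 to 13059 with HIF-2αDM. SREBF2 ran from 35888 to 43205 with HIF-1αDM, 29613 to 37042 with HIF-2α, 38389 to 50563 with R27E and 36446 to 39836 with HIF-2αDM, below every WT library in the HIF-2α and HIF-2αDM lines but not past the test. SREBF1 was at 16703 to 24607 with R30E and 19506 to 32866 with HIF-1αDM. INSIG1 was at 13212 to 17915 with HIF-2α, 22707 to 28867 with R27E and 23632 to 31776 with HIF-2αDM, the first of which alone was separate from WT.

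HIF-1α and HIF-2α were measured in both batches with no library in common. With HIF-2α, 4 of the 5 members called in batch 1 were also called in batch 2, where 10 were (DHCR7, HMGCS1, SCD and SREBF1, 4 of the 5 in the first list and 4 of the 10 in the second). Of the 22915 genes tested in both batches, 1.39% were called lower in both with HIF-2α. With HIF-1α, the 1 called member was INSIG1 in both, where 0.314% of all genes were called lower in both. The sign of the change was negative in both batches for 27 of 30 members with each protein, against 36.9% of all genes with HIF-1α and 37.5% with HIF-2α. Across the 30 members the changes correlated at Pearson's r of 0.87 for HIF-1α and 0.83 for HIF-2α, a description over genes that share libraries. The like correlation over all genes was not computed. No separately made line is described, so the same stable lines may underlie both batches. In a joint fit with no block no member's response differed between batches at the adjusted p: with HIF-1α 0 of 30 and with HIF-2α 0 of 30 passed lower at any fold, where 0% of the 26763 genes did in each. At an unadjusted p under 0.05 there were 2 and 12 members. No other tool was run on this contrast. The difference (batch 2 minus batch 1) was most negative for SREBF1 with HIF-2α, at -1.39 ± 0.21 (edgeR adjusted p = 0.026). In a fit with the replicate block 8 members were lower at any fold with HIF-2α and 1 with HIF-1α, and SREBF1 and SCD were called with HIF-2α, and without WT replicate 3 of batch 1, in the fit with no block, SREBF1 was. With HIF-2α the difference was negative for 26 members, with a median of -0.30 against -0.05 for all genes.

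**Figure D5:**
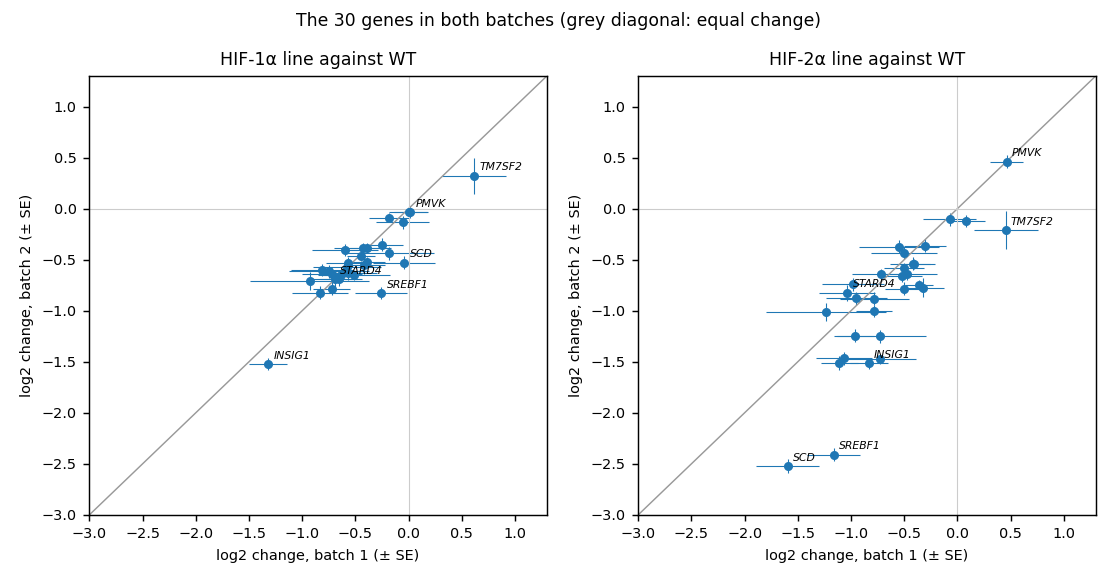
The log2 change from WT of each of the 30 genes (points, with SE) in batch 1 (horizontal axis) and batch 2 (vertical axis), for HIF-1α on the left and HIF-2α on the right, with the diagonal of equal change. Points below the diagonal fell further in batch 2, and 27 of 30 genes lie at negative values on both axes in each panel.

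Of 23 other genes of lipid synthesis and its control, 23 were tested in batch 2 and 22 in batch 1. In batch 2, 8 were lower at any fold in the HIF-1α line (7.87% of all genes), 10 in HIF-2α/1α (7.91%), 11 in HIF-2α (14%) and 11 in HIF-1α/2α (14.1%), and 7 were lower in all 4 lines, where 4.3% of all genes were. LPIN1, a phosphatidate phosphatase, was called lower in all 4 (-1.09 to -1.41), and so was MYLIP (-1.31 to -1.81). INSIG2, the paralog of INSIG1, went the other way with HIF-1α, from 2163 to 2458 counts in WT to 3968 to 4729 (0.96 ± 0.07, edgeR adjusted p = 2.6e-15), and in batch 1 from 510 to 600 to 1220 to 1354. SCD5, the paralog of SCD, was near 0 in WT (0.963 to 4.04 counts in batch 2) and at 24.2 to 31.8 with HIF-1α and 10.6 to 28.9 with HIF-2α. In batch 1, 1 of the 22 was lower with HIF-2α (LPIN1) and none with HIF-1α. Of 10 proliferation genes, 4 were lower at any fold with HIF-1α in batch 2, by -0.23 (CDK1) to -0.30 (CCNB1), 1 with HIF-2α/1α and 2 with HIF-2α. With HIF-1α/2α 0 were lower and 2 were higher (TOP2A at 0.30 and TYMS at 0.38). The IDR effect passed for 5 higher and the structured-domain effect for 2 lower proliferation genes, and none passed against WT in batch 1. Their part in the members' changes was not tested.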

How the data were processed

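RNA was measured by poly(A) RNA-seq in 42 libraries of 786-O cells. Per the labels and the methods of the study, the authors aligned reads to hg38 with STAR, kept unique mappers and counted them per gene without strand (HTSeq, GENCODE release 32). The submitters' processing notes give STAR 2.7 and HTSeq 0.11.1, the methods of the study give other versions of both, and which versions made the deposited counts is not known here. The deposited values are raw counts, 1 file per library, and ERCC spike-ins were not used here.

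The 30 genes and the other lists were chosen with earlier results of these data known. Genes with a mean normalised count of at least 0.5 were tested (23410 in batch 1, 28724 in batch 2, 26763 in the joint fit) with edgeR 4.0.16 in R 4.3.3 (TMM factors, quasi-likelihood F-test, all groups of a batch in 1 fit, no block, Benjamini-Hochberg over all genes tested). A gene was called at an adjusted p of at most 0.01 and a fold of at least 2. Standard errors are on the log2 scale and normalised counts are counts divided by the TMM-scaled library size. The parts of HIF-α were tested over the 4 transgenic lines of batch 2 as averages of both backgrounds. Full values are given for members called in any comparison, for the 2 members with the largest change in each direction among those past the adjusted p without overlap between groups, and for SREBF1, SREBF2, SCAP and INSIG1 in every group; other members are given by ranges and counts. The steps were tested on simulated data with known changes. TMM factors ran from 0.822 to 1.16. A count of 3, given only as a floor for reading 0 counts, was 0.0274 to 0.0708 CPM and replaced no count in the fits. The log2 levels of libraries used a prior count of 2. Floors cover counting error only.

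Nothing says that the 3 replicates, which the study calls biological, came from separate cultures, so p-values measure only the spread between these samples, which may be technical. Replicates differed by more than sampling noise, with a chi-square per gene of at least 4.76, and none was counted as a repeat. Same-numbered libraries of batch 1 deviated from their group means together: in 8 of 11 comparisons every pair's correlation was above 0.1, the numbers marking no stated batch. In batch 2 they did not (-0.00955 to 0.00559), so the number there is only a name. Alternatives were DESeq2's factors (RLE), DESeq2 1.42.0, no filter on low counts, the replicate number as a block, only the groups compared, libraries numbered 1 and 2 only, no minimum fold, and leaving out each library in turn. Promoter motifs were searched in RefSeq windows, and coordinates are those of GENCODE release 44 on GRCh38. The genotype label of HIF-2αDM names HIF-1α, while its title and description name HIF-2α, which was followed.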

Additional observations from a re-analysis of the deposited data

Results flagged for a closer look

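For 3 genes the effect of the IDR differed between the 2 structured parts, by a test of the interaction itself in batch 2 (HIF-2α minus HIF-2α/1α, less HIF-1α/2α minus HIF-1α, edgeR's quasi-likelihood test with adjustment over all genes). INSIG1 had an interaction of 0.39 on the log2 scale and passed in all 12 fits that left out 1 transgenic library, at 0.35 to 0.43. Its counts were lowest with HIF-1α/2α. FASN had an interaction of -0.266 and passed in 5 of 12 such fits, at -0.30 to -0.23. ELOVL6 had an interaction of -0.362 and passed in 5 of 12, at -0.43 to -0.28, its counts being highest with HIF-1α/2α. None of these reached 2-fold. All 3 passed with the replicate block, with no filter on low counts and when only the 4 lines were fitted. With RLE factors INSIG1 passed, while FASN (-0.25, edgeR adjusted p = 0.019) and ELOVL6 (-0.35, edgeR adjusted p = 0.011) did not. DESeq2 passed INSIG1 and ELOVL6, and FASN did not pass (DESeq2 adjusted p = 0.012).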

How the results depend on the processing

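Of the 39 pairs of a member and a comparison that were called, 38 were still called with RLE factors, 39 with the replicate block, 39 with no filter on low counts, 38 with DESeq2, 39 when only the groups compared were fitted, and 227 of 255 over the fits that left out 1 library. With libraries numbered 1 and 2 only, 8 of 11 were. No called change turned sign in any of these. With no minimum fold the counts became 1 (HIF-1β KIN), 2 (HIF-1α), 3 (R30E), 8 (HIF-2α), 1 (HIF-1α against its mutants) and 6 (HIF-2α against its mutants) in batch 1, and 25 (HIF-1α), 26 (HIF-2α/1α), 27 (HIF-2α), 27 (HIF-1α/2α), 15 (HIF-2α against HIF-1α), 16 (IDR), 11 (structured domains) and 3 (interaction) in batch 2. With no filter on low counts R27E had 1 called member (TM7SF2, higher). Leaving out 1 library gave 0 to 1 called members for R30E, 1 to 6 for HIF-2α against WT in batch 1, 0 to 1 for HIF-2α against HIF-1α in batch 1, and 0 to 1 for the difference of the HIF-2α response between batches, and medians of -0.828 to -0.528 for HIF-2α against WT and -0.809 to -0.508 for HIF-2α against its mutants. The median of HIF-2α/1α ran from -0.629 to -0.523 (the latter without WT replicate 3). The lone LSS result of HIF-1β KIN, the INSIG1 result of HIF-1α against its mutants and the DHCR7 result of HIF-1α at any fold were each lost in at least 1 such fit.

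The replicate block left the called counts of batch 1 unchanged except for HIF-2α against WT (6) and against its mutants (4), and gave 2 called members for the difference of the HIF-2α response between batches. For R30E, whose numbers did not all pair with WT (lowest correlation 0.0748), 14 members were lower at any fold with the block. Without the filter 6 (HIF-1α), 7 (R30E), 13 (HIF-2α) and 14 (HIF-2α against its mutants) members of batch 1 were lower at any fold. The causes were not tested.

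The spread between the libraries of batch 1, 0.25 in a typical standard error against 0.06 in batch 2, limits what the fits with no block can show below 2-fold in batch 1. With the replicate block 12 members (HIF-1α) and 16 (HIF-2α) of batch 1 were lower than WT at any fold.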
